A study of Rattus norvegicus with 24 samples.

Results

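Rats received repeated intratracheal instillations of the same zinc-rich oil combustion particles at a high (PM-HD) or a low (PM-LD) dose, and RNA of their hearts was compared array by array. The 8 arrays compared were those whose titles name the high or the low dose, 4 of each, among 24 arrays of the study, and all 15866 probe sets of the array except the Affymetrix controls were tested. Both groups were male Wistar Kyoto rats of 12 to 14 weeks at the start. PM-HD received the whole particle suspension, labelled as 14.5 μg of zinc and 3.0 μg of nickel per mg, once a week. PM-LD received the same particles at a lower dose, and its labels give 7.25 μg of zinc and 1.5 μg of nickel per mg, lower by a factor of 2. Per the methods, both groups received the same particle sample, and the weekly dose of PM-LD was lower by that factor at the same length of exposure. The weekly zinc in the methods also differs by that factor only. The lower content per mg on the PM-LD labels is at odds with this, and no difference in composition is taken from it. The saline rats, 4 arrays, were instilled with the vehicle alone and serve as the background of both doses. Every rat carried 1 array, made from the left ventricle plus septum 48 hr after the last instillation. Per the methods, the PM-HD and saline rats of the arrays were instilled for 8 weeks. The sources used here do not state how many weeks the PM-LD rats were instilled, so that the dose and the length of exposure may both differ between the groups and cannot then be told apart. The rats were healthy and unmodified, and the exposure was given through the trachea. What of it reached the heart was not measured on these arrays.

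The heart muscle of the ventricle burns mainly fatty acids in its mitochondria and keeps a circadian clock of its own. Zinc in cells is bound by metallothioneins and moved by transporters of the SLC30 family, which take it out of the cytosol, and of the SLC39 family, which bring it in. The metal-sensing factor MTF1 raises metallothionein and Slc30a1 when zinc is high. The question put to the arrays was whether the heart differs between these doses of particles, gene by gene and in these pathways.

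The comparison as a whole held no call after adjustment, and about as many low unadjusted p values as arise where nothing differs. Past the thresholds of the study (p under 0.05, here from limma, and a level more than 25% higher or more than 25% lower), 379 probe sets were higher with PM-HD than with PM-LD (2.39% of those tested) and 361 were lower (2.28%), which is 740 or 4.66% in either direction. With Benjamini-Hochberg adjustment in limma, 0 probe sets had an adjusted p under 0.05 and the lowest was 0.348, whereas 795 (5.01%) had an unadjusted p under 0.05. That is about the share this threshold gives where no probe set differs. The median fold was 1.62 among the higher and 0.577 among the lower probe sets, and 173 of them differed by more than 1 on the log2 scale. The groups did not overlap in 411 probe sets (2.59%), 223 of them higher (1.41%) and 188 lower (1.18%). Dim probe sets made up most of the calls: 469 lay below the median level of all probe sets (5.91% of those there) and 271 above it (3.42%). Of 239 called probe sets whose gene had other probe sets, 6 had another that passed in the same direction, 4 had another that passed in the opposite direction, and 229 had no other that passed. Against saline, 511 probe sets passed in PM-HD (3.22%; 1.74% higher and 1.48% lower) and 652 in PM-LD (4.11%; 2.24% higher and 1.87% lower), with unadjusted p under 0.05 in 3.45% and 4.49% and adjusted p under 0.05 in 0 of either. All differences below are therefore without a call at adjusted p, and "passed" refers to the thresholds of the study.

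Arrays of different dose were about as far apart as arrays of the same dose. The root mean square log2 difference between arrays had a median of 0.645 within PM-HD (0.608 to 0.746), 0.689 within PM-LD (0.604 to 0.851), and 0.677 between the doses (0.560 to 0.867). PM-HD replicate 2 was nearest to PM-LD replicate 2, and PM-HD replicate 4 nearest to PM-LD replicate 3. The signal ratio of the Gapdh controls at the 3′ and the 5′ end, which rises as RNA degrades, was 2.46, 1.48, 3.59, and 4.81 in PM-HD and 1.91, 1.22, 4.64, and 1.22 in PM-LD (exact permutation p = 0.371, two-sided). The mean log2 level of the 4 atrial transcripts Nppa, Myl7, Myl4, and Sln was 8.36, 10.4, 7.92, and 8.75 in PM-HD and 8.45, 13.1, 9.40, and 8.21 in PM-LD (exact permutation p = 0.6, two-sided). These features of single rats differed more within a dose than between the doses, and their values stand below beside the genes set against them. Removing single arrays moved the counts of calls: without PM-LD replicate 3, 1577 probe sets passed and 1 had an adjusted p under 0.05, without PM-HD replicate 2 1206 passed, and without PM-LD replicate 4 563. With 4 rats against 4, the smallest p an exact permutation test can give is 0.0286. Genes chosen below for not overlapping between the doses have that p by the choice, so it is not given for them.

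The markers of the labelled tissue were present. The summed signal of 9 ventricular cardiomyocyte markers was 203618 to 269056 in PM-HD and 200408 to 260869 in PM-LD, and 0 of the 9 passed. Myh6, the fast myosin heavy chain of the rat ventricle, had a mean signal of 35784 in PM-HD and 32651 in PM-LD. In these pieces of whole tissue, fewer cells of a type and less RNA per cell cannot be told apart.

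The bright gene with the largest difference was RT1-CE5, one of the rat's class I histocompatibility genes, whose products present peptides to T cells. Its signal was 767, 564, 895, and 1090.2 in the PM-HD rats, 357, 353, 275, and 318 in the PM-LD rats, and 202, 256, 376, and 302 in saline. Every PM-HD rat lay above every PM-LD and saline rat, while PM-LD and saline overlapped. RT1-CE5 was 2.38-fold higher in PM-HD than in PM-LD (standard error 0.45 on the log2 scale; adjusted p from limma 0.900). The class I genes are close copies of each other, so the probe set may read more than 1 of them, and 0 of the 4 other probe sets that carry this symbol passed (log2 differences of −0.22, 1.21, 1.84, and 2.26). RT1-CE5 did not pass without the arrays of Gapdh ratio above 3 (PM-HD replicates 3 and 4 and PM-LD replicate 3, and 6 arrays of other groups).

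For Tspan8 and Car8, PM-LD was the group that stood apart. Tspan8, which encodes a membrane tetraspanin, had signals of 1102, 926, 1016, and 1854 in PM-HD, 639.5, 633, 618, and 582 in PM-LD, and 1091, 856, 1008, and 1334 in saline. Car8, which encodes a relative of the carbonic anhydrases without their enzyme activity, had 549, 275, 502, and 487 in PM-HD, 270.0, 152, 259.8, and 238 in PM-LD, and 353, 314, 453, and 442 in saline. For both genes the PM-LD rats lay below all PM-HD and all saline rats, and PM-HD overlapped saline. The differences between the doses were 0.91 (standard error 0.30) for Tspan8 and 0.86 (0.31) for Car8.

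Cers2, which makes ceramides with very long acyl chains, had similar signals in all PM-HD rats. Its signal was 469, 441, 440.1, and 453 in PM-HD, 260.5, 218, 349, and 192 in PM-LD, and 383, 371, 333, and 373 in saline. The 4 PM-HD rats lay within a narrow range above saline, and the PM-LD rats lay below it, except that replicate 3 overlapped saline. The difference between the doses was 0.76 (standard error 0.17; adjusted p from limma 0.590).

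Nktr, which encodes a cyclophilin-related protein first described on natural killer cells, showed the other pattern. Its signal was 668, 622, 663, and 854 in PM-HD, 281, 244, 616, and 396 in PM-LD, and 569.8, 466, 254, and 389.5 in saline. PM-HD lay above both other groups, with the highest PM-LD rat just below the lowest PM-HD rat (0.86, standard error 0.26, between the doses). Ampd2, which encodes an AMP deaminase of purine metabolism, likewise had 437, 278, 334, and 528 in PM-HD against 254, 205, 222, and 161 in PM-LD (0.78, standard error 0.32). Ampd2 did not pass without PM-HD replicate 1 (0.71) or 4 (0.65) or PM-LD replicate 3 (0.75) or 4 (0.69), and its other probe set had a log2 difference of −0.02.

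The other 6 of the 12 largest higher genes were Coro2b (0.81), an actin-binding coronin, Rybp (0.68), a Polycomb partner, Nck2 (0.67), an adaptor of receptor tyrosine kinases, Ndst2 (0.64), an enzyme that sulfates heparan chains, Snx14 (0.64), a sorting nexin, and Cdca4 (0.61), a cell cycle gene. Rybp and Ndst2 passed as lower in PM-LD than in saline, as Cers2, Tspan8, and Car8 did, whereas RT1-CE5, Nktr, and Ampd2 passed as higher in PM-HD than in saline. Snx14 did not pass without PM-HD replicate 4 (0.57).

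Among the lower genes, Glul, which encodes glutamine synthetase, was the brightest of the 12 with the largest differences. Its signal was 1324, 1899.8, 1236, and 1136 in PM-HD, 2025, 2581, 1908, and 2332 in PM-LD, and 1539, 1459.8, 1401, and 1591 in saline. Every PM-LD rat lay above every PM-HD and saline rat. The difference was −0.67 (standard error 0.15; adjusted p from limma 0.590), and the other probe sets of Glul gave −0.69 and −0.24 without passing.

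Acacb encodes acetyl-CoA carboxylase 2, which makes the malonyl-CoA that holds back fatty acid entry into mitochondria. Its signal was 139, 216, 248, and 250.4 in PM-HD, 269, 390.2, 422, and 447 in PM-LD, and 213, 194, 194, and 266 in saline. PM-HD overlapped saline, and all PM-LD rats lay above both (−0.84, standard error 0.23, between the doses). Pop4, a subunit of ribonuclease P, had the same order, with 251, 314, 283, and 210.0 in PM-HD, 349.6, 381, 406, and 394 in PM-LD, and 239, 229.8, 322, and 309 in saline (−0.57, standard error 0.15).

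The other lower genes of the 12 were Dbp (described with the clock), Taok1 (−0.79), a kinase upstream of p38, Golph3 (−0.65), a Golgi protein, Gigyf2 (−0.61), a repressor of translation, Wls (−0.59), which carries Wnt proteins to the surface, Arih1 (−0.57), a ubiquitin ligase, Snrk (−0.56), a kinase related to AMPK, Tomm34 (−0.56), a cochaperone of mitochondrial import, and Mief2 (−0.55), a factor of mitochondrial dynamics. Acacb, Gigyf2, Glul, Pop4, and Dbp passed as higher in PM-LD than in saline, and of the 12 only Dbp passed in PM-HD against saline, also as higher. Taok1 did not pass without PM-HD replicate 1 (−0.33) or PM-LD replicate 2 (−0.69), nor Tomm34 without PM-HD replicate 1 (−0.47) or PM-LD replicate 4 (−0.49). Golph3 (−0.45) and Gigyf2 (−0.48) did not pass without PM-HD replicate 4, and Wls did not pass without any of 5 arrays (PM-HD replicates 1, 3, and 4 and PM-LD replicates 2 and 4; −0.49 to −0.60). Of the 24 genes, 16 passed whichever 1 array was left out, and 10 passed in all alternatives run. With a replicate block, Dbp, Golph3, and Snrk did not pass. Dbp, Taok1, and Wls did not pass without the arrays of atrial mean above 11. Without the arrays of Gapdh ratio above 3, RT1-CE5, Cdca4, Dbp, Gigyf2, Golph3, Pop4, and Snrk did not pass, and with the mean over all probe sets of a gene, RT1-CE5, Ampd2, Nck2, Arih1, and Gigyf2 did not. Both doses are set against the same saline arrays, so their differences from saline are not independent of each other.

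**Figure D1:**
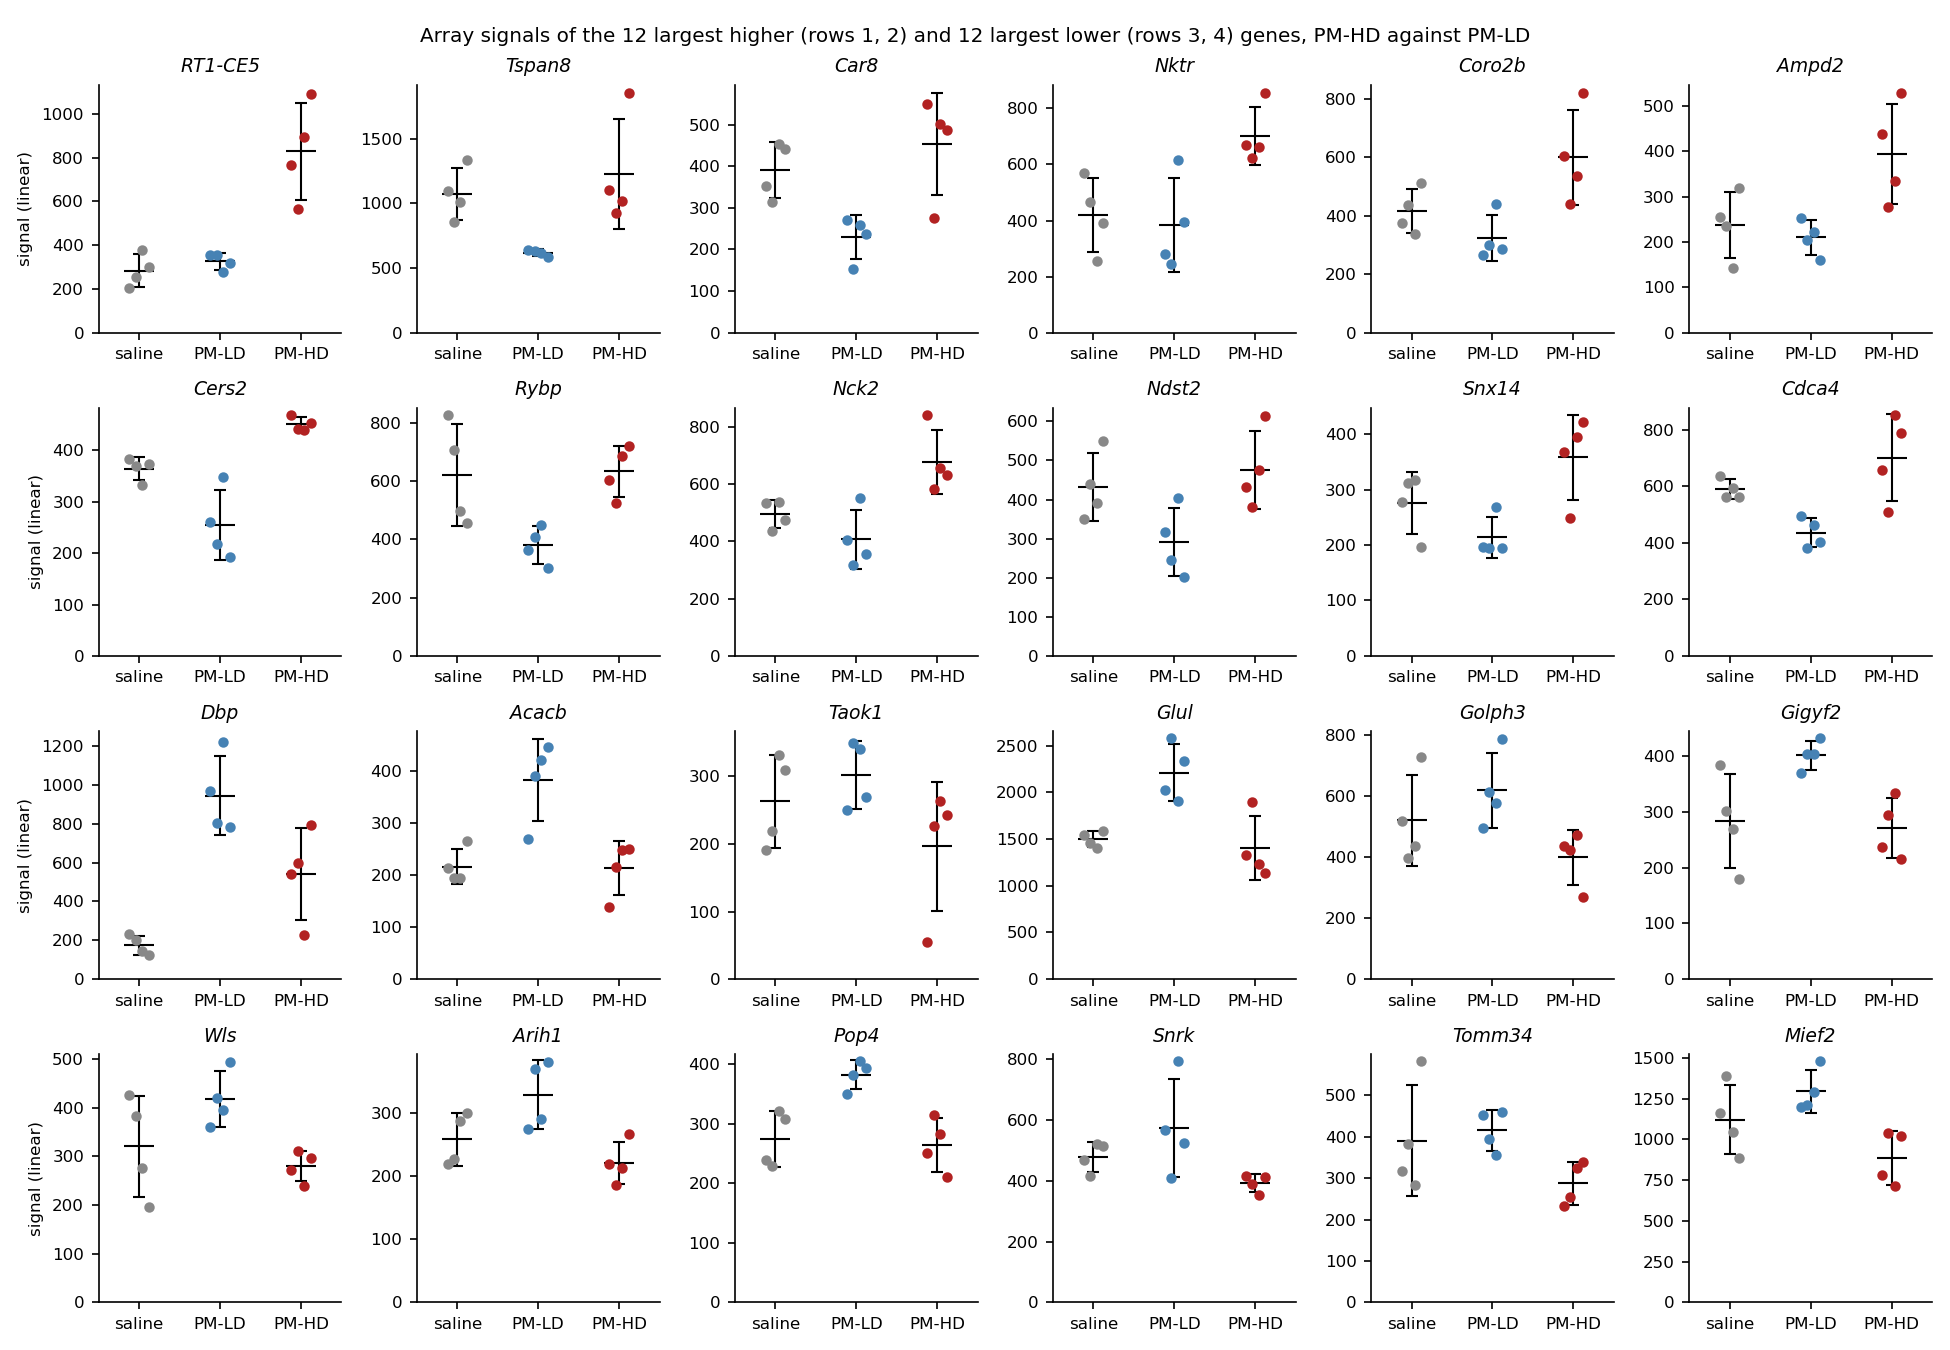
Signal on a linear scale (vertical axes) of every saline, PM-LD, and PM-HD rat (points; bars give mean ± SD, n = 4 per group) for the 12 genes with the largest higher and the 12 with the largest lower difference of PM-HD against PM-LD. For Tspan8 and Car8 the PM-LD points lie below both other groups, for RT1-CE5 the PM-HD points lie above both, and for Glul, Acacb, and Pop4 the PM-LD points lie above both. The genes were chosen for not overlapping between the doses, so that separation is given by the choice.

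The lowest p values over all probe sets, 3.83e-05 and 4.38e-05 in limma, belonged to Sptbn1 and Mdm2, which were chosen here after their values were seen. The Sptbn1 probe set, of a spectrin of the membrane skeleton, had 762, 689, 1066, and 629 in PM-HD, 1214, 1648, 1248, and 1794 in PM-LD, and 738, 999.9, 917, and 886 in saline (−0.89, standard error 0.17, adjusted p from limma 0.348). The other 3 probe sets of Sptbn1, 2 of them brighter, gave 0.17, 0.42, and −0.21 and did not pass. The Mdm2 probe set, of the ubiquitin ligase that removes p53, was dim, with 21.2, 22, 8.6, and 16 in PM-HD, 110.2, 165, 131, and 182 in PM-LD, and 95.7, 80.7, 112, and 86.8 in saline (−2.32, standard error 0.45, adjusted p from limma 0.348). PM-HD lay below both other groups. The brighter Mdm2 probe set, with means of 189 in PM-HD, 284 in PM-LD, and 168 in saline, also passed as lower in PM-HD (−0.61, standard error 0.23), but not without PM-HD replicate 1 (−0.52), and there PM-LD stood above saline. Slc4a4, a sodium bicarbonate cotransporter, was the 1 probe set with adjusted p under 0.05 when PM-LD replicate 3 was left out (0.00121). It had dim signals of 50.6, 35.8, 68, and 39.4 in PM-HD and 144, 174, 54.1, and 218 in PM-LD, so that replicate 3 alone lay among the PM-HD rats (−1.26 with all arrays, −1.69 without it). Its other probe set gave −0.27 and did not pass.

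Of 16 measured metallothioneins, zinc transporters, and the factor MTF1, 2 passed as higher in PM-HD, 0 passed as lower, and 13 of the 16 differences lay above 0. The median log2 difference was 0.29, where the median over all 10410 genes was 0.02 and 2.40% of genes passed as higher and 1.69% as lower. Slc30a2, a transporter that loads zinc into vesicles, had 277, 147, 285, and 194 in PM-HD, 138, 96.4, 224, and 88.2 in PM-LD, and 168, 152, 235, and 352 in saline. The doses overlapped by 1 rat, PM-LD replicate 3, and the difference of 0.65 (standard error 0.21) passed in all alternatives run. PM-HD and saline were alike in mean (226 ± 66.6 and 227 ± 90.6; mean ± SD, n = 4), and PM-LD was the low group (137 ± 62.4). Slc39a1, an importer of the cell surface, had 554, 681, 788, and 1077 in PM-HD and 708, 660.5, 537, and 246 in PM-LD (0.55, standard error 0.26), and did not pass without any of 5 arrays, with 0.25 without PM-LD replicate 4 as the lowest value and 0.38 without PM-HD replicate 4, 0.53 without PM-HD replicate 3, 0.58 without PM-HD replicate 2, and 0.54 without PM-LD replicate 3.

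The metallothioneins, which bind zinc and whose genes respond to it, did not pass with all arrays and no replicate block. Mt2A, the brightest, had 819, 529, 536, and 735 in PM-HD, 1124, 836, 792, and 768 in PM-LD, and 666, 838, 337, and 663 in saline. The doses overlapped, and the higher dose had the lower mean (−0.44, standard error 0.39; exact permutation p = 0.0857, two-sided). Mt1 was dim, with 14.6, 37.6, 95.5, and 45.9 in PM-HD, 9.7, 8.4, 132, and 11.4 in PM-LD, and 9.7, 47.3, 13.2, and 14.8 in saline, and its 1 high PM-LD rat was replicate 3 (0.54, standard error 0.54). Mt1 passed as higher in PM-HD when PM-LD replicate 3 was left out (1.09), and Mt2A passed as lower with a replicate block. Mt3 (0.55, standard error 0.37) was also dim. Slc30a1, the zinc exporter of the cell surface, had 179.9, 134, 162, and 188 in PM-HD, 165, 222, 207, and 191 in PM-LD, and 146, 118, 174, and 153 in saline (−0.26, standard error 0.17). Mt2A and Slc30a1 thus both had their highest mean at the low dose, without passing between the doses unless a replicate block was used (Mt2A). Slc30a1 alone of these passed as higher in PM-LD than in saline (0.41, standard error 0.17). The other SLC30 members ran from −0.17 (Slc30a5) to 0.39 (Slc30a7), and the other SLC39 members from 0.06 (Slc39a13) to 0.69 (Slc39a4), without passing. Mtf1 had 562 ± 57.5 in PM-HD and 465 ± 95.1 in PM-LD (0.23, standard error 0.18).

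**Figure D2:**
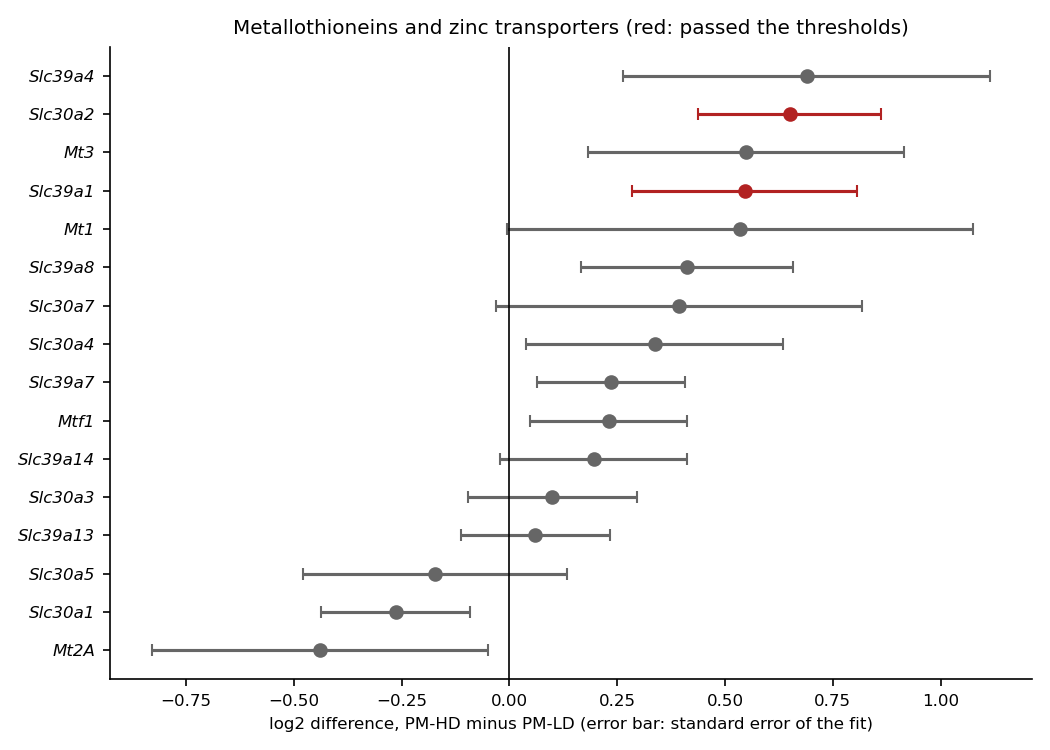
Log2 difference of PM-HD minus PM-LD (horizontal axis) with the standard error of the fit (bars) for each of 16 metallothionein, zinc transporter, and Mtf1 genes (vertical axis). Slc30a2 and Slc39a1, in red, passed the thresholds of the study, and Mt2A, Slc30a1, and Slc30a5 lie below 0.

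The promoters of these genes are shown because metal response elements there are the known site of MTF1. The core of the element was searched as TGCACNC or TGCGCNC on both strands, in windows of 250 bases before to 50 after each start of RefSeq on rat build GRCr8, and its letters stand in capitals. The core was present in 24.2% of all 33469 windows, in 36.6% of the 8632 array genes with a window, and in 11 of 13 zinc genes with one. It was present in 35.3% of 215 genes that passed as higher in PM-HD and in 35.9% of 142 that passed as lower. A match is a description of the letters and not a site in use. Mt1, with 6 matches, is not printed, and the second start of Slc30a2 held 0 matches.
Mt2A, chr19:10838659-10838958, - strand: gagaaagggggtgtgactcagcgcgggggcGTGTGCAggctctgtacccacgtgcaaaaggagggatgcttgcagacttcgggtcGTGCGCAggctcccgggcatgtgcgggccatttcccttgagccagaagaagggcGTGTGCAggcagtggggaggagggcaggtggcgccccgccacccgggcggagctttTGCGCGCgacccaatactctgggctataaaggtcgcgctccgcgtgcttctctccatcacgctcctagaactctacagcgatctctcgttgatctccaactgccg
Slc30a1, chr13:106021769-106022068, + strand: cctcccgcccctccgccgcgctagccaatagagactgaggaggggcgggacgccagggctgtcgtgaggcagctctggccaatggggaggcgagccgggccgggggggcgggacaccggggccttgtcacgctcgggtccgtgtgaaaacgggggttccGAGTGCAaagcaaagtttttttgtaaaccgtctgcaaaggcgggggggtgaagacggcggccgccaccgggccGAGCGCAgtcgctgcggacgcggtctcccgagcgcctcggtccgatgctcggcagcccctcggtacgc
Slc30a2, chr5:151843201-151843500, + strand: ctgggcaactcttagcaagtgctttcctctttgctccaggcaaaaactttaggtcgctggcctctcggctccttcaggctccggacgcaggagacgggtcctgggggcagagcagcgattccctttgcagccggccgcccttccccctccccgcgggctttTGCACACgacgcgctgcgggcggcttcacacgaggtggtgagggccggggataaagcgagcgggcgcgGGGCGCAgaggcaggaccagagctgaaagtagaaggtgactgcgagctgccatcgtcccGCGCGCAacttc
The Mt2A window held 4 matches, that of Slc30a1 2, and that of the first start of Slc30a2 3. Among these printed genes, Mt2A and Slc30a1 had negative and Slc30a2 positive log2 differences of PM-HD minus PM-LD.

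Of 10 clock genes whose daily peak is near that of Dbp, 2 passed as lower in PM-HD than in PM-LD, 0 passed as higher, and 8 of the 10 differences lay below 0 (median −0.38), where 1.69% of all genes passed as lower and 2.40% as higher. Dbp, a transcription factor of the clock output, had 542, 599.8, 228, and 793 in PM-HD, 967, 802, 1222, and 783 in PM-LD, and 230.4, 200.5, 145, and 124 in saline. In the deposited signals the highest PM-HD rat lay just above the lowest PM-LD rat, and after normalization the doses did not overlap. The difference was −0.93 (standard error 0.42), and Dbp did not pass without PM-HD replicate 3 (−0.56), PM-LD replicate 1 (−0.91), or PM-LD replicate 3 (−0.81). Dbp also lost its call with the Gapdh ratio as a covariate. Against saline, Dbp was higher by 1.45 in PM-HD and by 2.38 in PM-LD (standard error 0.42), so the low dose stood farther from saline.

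Bhlhe40, which encodes a repressor of the clock, had 166, 117, 136, and 278 in PM-HD, 244, 477, 282, and 312 in PM-LD, and 198, 194, 152, and 151 in saline. PM-HD lay with saline and PM-LD above both, with an overlap between the doses in PM-HD replicate 4 (−0.92, standard error 0.28; exact permutation p = 0.0857, two-sided). Bhlhe41, its close relative, had 353, 599.7, 322, and 270.4 in PM-HD and 691, 893, 383, and 827 in PM-LD (−0.85, standard error 0.51, not passing). Bhlhe41 passed when the 8 arrays of the doses were fitted alone (−0.86), with a replicate block, without the arrays of Gapdh ratio above 3 (−0.82), and without PM-LD replicate 3 (−1.15). The REV-ERB genes Nr1d1 and Nr1d2, repressors of Bmal1, had −0.40 (standard error 0.33) and −0.34 (0.32) between the doses without passing. Nr1d1 had means of 793 ± 302 in PM-HD, 986 ± 180.1 in PM-LD, and 344 ± 114 in saline. A dimmer probe set of Nr1d2 did pass as lower in PM-HD (−1.54), and another, brighter than that one, gave −0.46 and did not pass. Tef (−0.37), Per1 (−0.40), and Per2 (−0.02) lay below 0, and Per3 (0.18) and Hlf (0.15) above 0, without passing. Per1 and Per2 varied widely among rats of 1 dose, with Per1 at 46.6 to 899 in PM-HD and at 83.5 to 1121 in PM-LD.

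Bmal1, the activator that peaks in opposite phase to Dbp, had 279, 239, 406, and 313 in PM-HD, 161, 221, 137, and 171 in PM-LD, and 362, 344, 466, and 425 in saline. Every PM-HD rat lay above every PM-LD rat, and PM-LD lay below saline (0.74, standard error 0.50, between the doses; exact permutation p = 0.0286, two-sided). It did not pass in limma, whose moderated variance was estimated over all 24 arrays, and passed when the 8 arrays of the 2 doses were fitted alone. Clock (−0.07) and Nfil3 (0.12), which share its phase, did not pass. The clock time of necropsy is not given in the labels, and its part in these differences was not tested. Without the arrays of Gapdh ratio above 3, the median of the 10 genes of the Dbp group was −0.07 in place of −0.38 and 5 lay above 0. With 1 array left out, that median ran from −0.55 (without PM-HD replicate 4) to −0.13 (without PM-HD replicate 3).

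**Figure D3:**
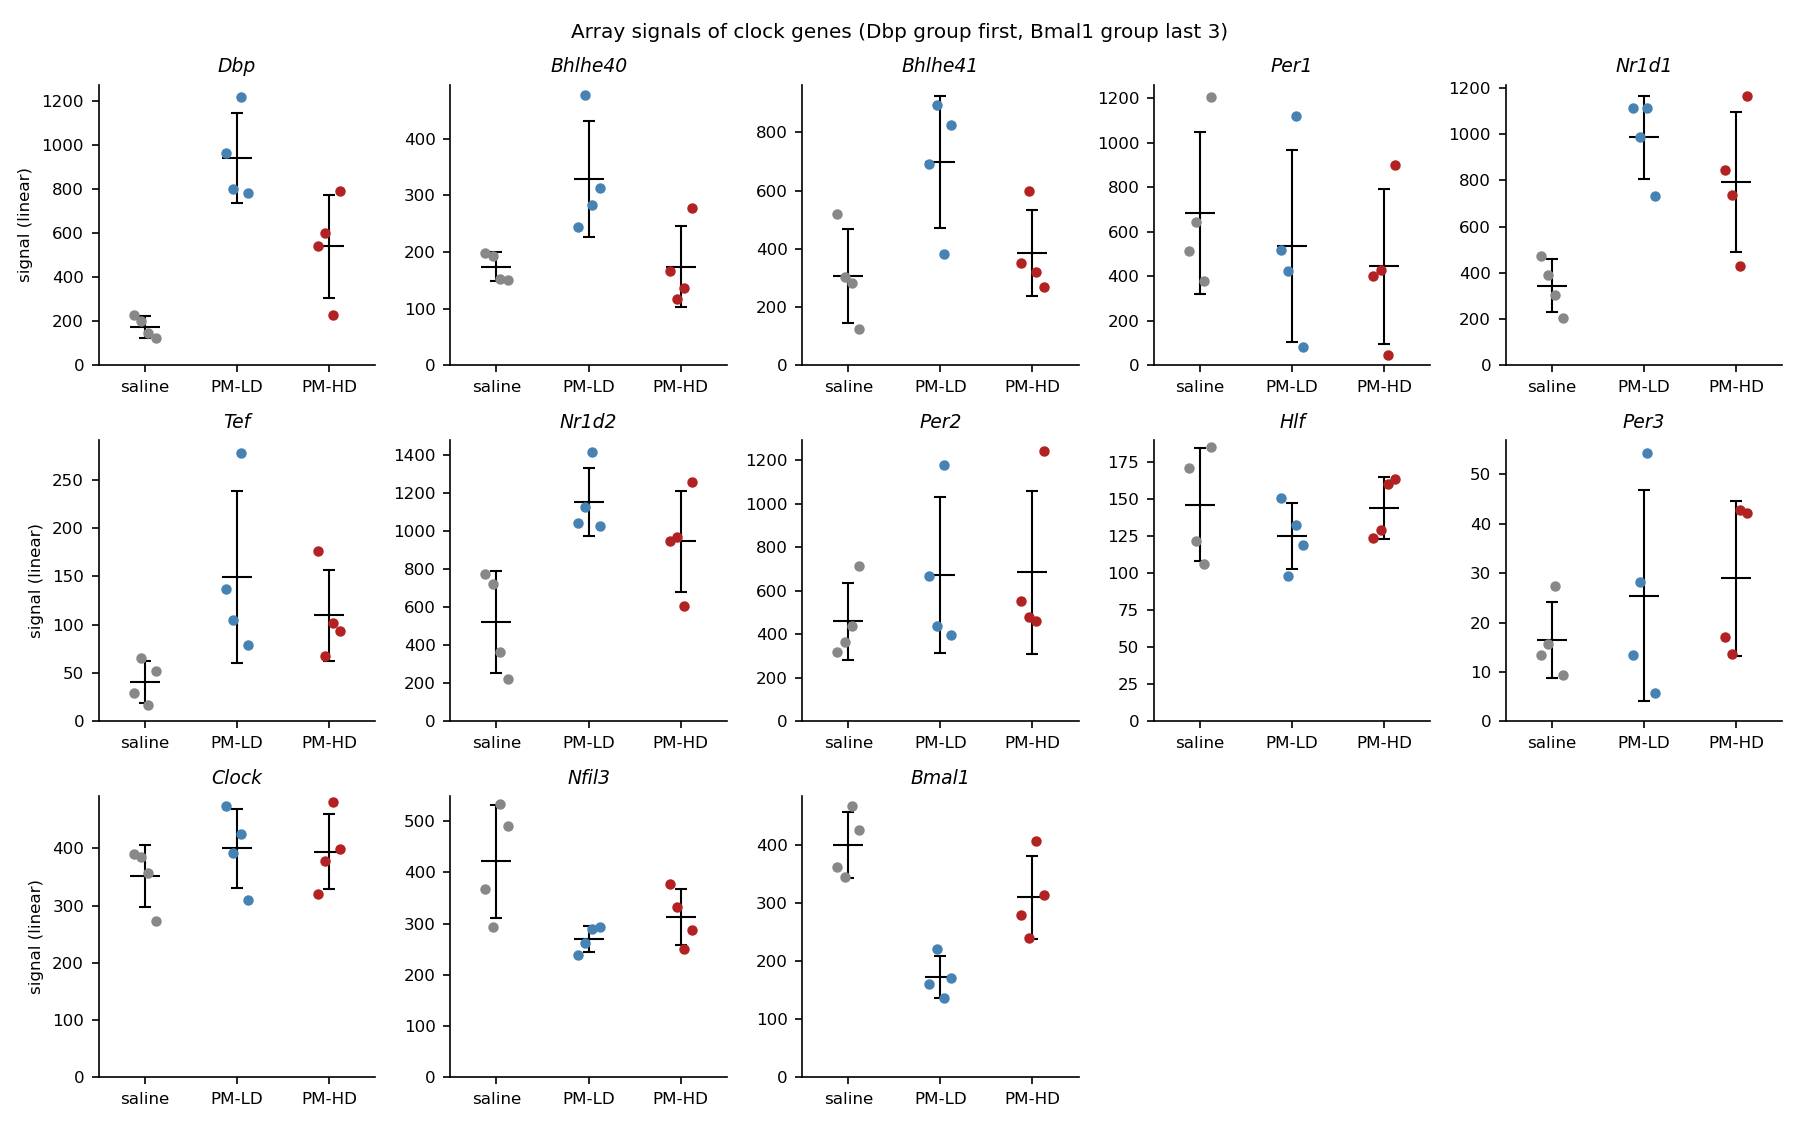
Signal on a linear scale (vertical axes) of every rat (points; bars give mean ± SD, n = 4 per group) for 10 clock genes that peak with Dbp and, in the last 3 panels, genes that peak with Bmal1. The means of Dbp rise in the order saline, PM-HD, PM-LD, those of Bmal1 fall in that order, and for Per1 and Per2 single rats of 1 dose lie far apart.

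The binding site of CLOCK and BMAL1, and of BHLHE40 itself, is the E-box CACGTG, and the promoters of the Bhlhe genes are shown with its letters in capitals. It was found in 6.42% of all windows, in 9.29% of array genes, in 4 of 9 genes of the Dbp group with a window, and in 0 of 3 of the Bmal1 group. Among genes that passed, it was present in 5.12% of the higher and 12.7% of the lower. The motif reads the same on both strands.
Bhlhe40, chr4:143174200-143174499, + strand: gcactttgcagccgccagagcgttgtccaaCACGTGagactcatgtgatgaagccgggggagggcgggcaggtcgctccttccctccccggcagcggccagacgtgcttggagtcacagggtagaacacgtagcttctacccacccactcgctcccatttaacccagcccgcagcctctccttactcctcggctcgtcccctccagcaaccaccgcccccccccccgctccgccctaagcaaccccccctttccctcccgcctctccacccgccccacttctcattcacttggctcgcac
Bhlhe41, chr4:180569306-180569605, - strand: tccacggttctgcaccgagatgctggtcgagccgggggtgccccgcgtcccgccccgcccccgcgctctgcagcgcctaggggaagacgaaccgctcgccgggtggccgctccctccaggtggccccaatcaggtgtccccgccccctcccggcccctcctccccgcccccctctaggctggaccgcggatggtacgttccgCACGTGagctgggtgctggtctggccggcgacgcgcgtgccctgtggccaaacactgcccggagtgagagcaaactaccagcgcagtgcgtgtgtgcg
Each of these windows held 1 match, and the Dbp window held 0.

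Genes of mitochondrial fuel use were on balance lower in PM-HD. Of 41 genes of mitochondrial fatty acid metabolism, 2 passed as lower, 0 as higher, and 8 lay above 0 (median −0.26). Over all 10410 genes, 1.69% passed as lower and 2.40% as higher, 5431 lay above 0, and the median was 0.02. Mlycd encodes malonyl-CoA decarboxylase, which removes the malonyl-CoA that Acacb makes. Mlycd had 1040.1, 1909.8, 691, and 905 in PM-HD, 1939, 1731, 1468, and 2430.4 in PM-LD, and 1586, 1745, 1338, and 1819 in saline, so PM-HD replicate 2 lay among the PM-LD rats (−0.81, standard error 0.25). Pdk4, a kinase that shuts pyruvate out of the citric acid cycle, had 354, 640.2, 312, and 228 in PM-HD and 331, 1028, 617, and 1044 in PM-LD (−0.94, standard error 0.42). The Pdk4 call was lost without any of 5 arrays, with −0.72 without PM-HD replicate 4, −0.86 without PM-HD replicate 3, −0.94 without PM-HD replicate 1, −0.74 without PM-LD replicate 2, and −0.73 without PM-LD replicate 4. Enzymes of beta-oxidation such as Hadhb (4049 in PM-HD and 7451 in PM-LD; −0.96, standard error 0.59) and Hadh (−0.78, standard error 0.60) did not pass. Of 17 citric acid cycle genes, 0 passed and 2 lay above 0 (median −0.24). Of 51 genes of the electron transport chain and ATP synthase, 0 passed and 18 lay above 0 (median −0.06). Single arrays moved these medians. Without PM-HD replicate 4 they were −0.08 for fatty acid metabolism, −0.04 for the citric acid cycle, and 0.05 for electron transport. Without PM-LD replicate 3 they were −0.51, −0.44, and −0.12.

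These fuel genes moved with the Gapdh ratio of the arrays. The mean log2 level of the fatty acid genes was 10.8, 11.1, 10.4, and 10.1 in PM-HD and 10.9, 11.2, 10.3, and 11.1 in PM-LD, lowest in PM-HD replicates 3 and 4 and PM-LD replicate 3, the 3 arrays of these doses with a Gapdh ratio above 3. With the Gapdh ratio as a covariate, the median of the fatty acid genes was −0.01 and 20 of 41 lay above 0, and the median of the citric acid cycle genes was 0.08. Without the arrays of Gapdh ratio above 3, the medians were −0.14 and −0.23, with 2 rats left in PM-HD and 3 in PM-LD. The call of Pdk4 was lost in both of these settings, and that of Mlycd without those arrays.

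**Figure D4:**
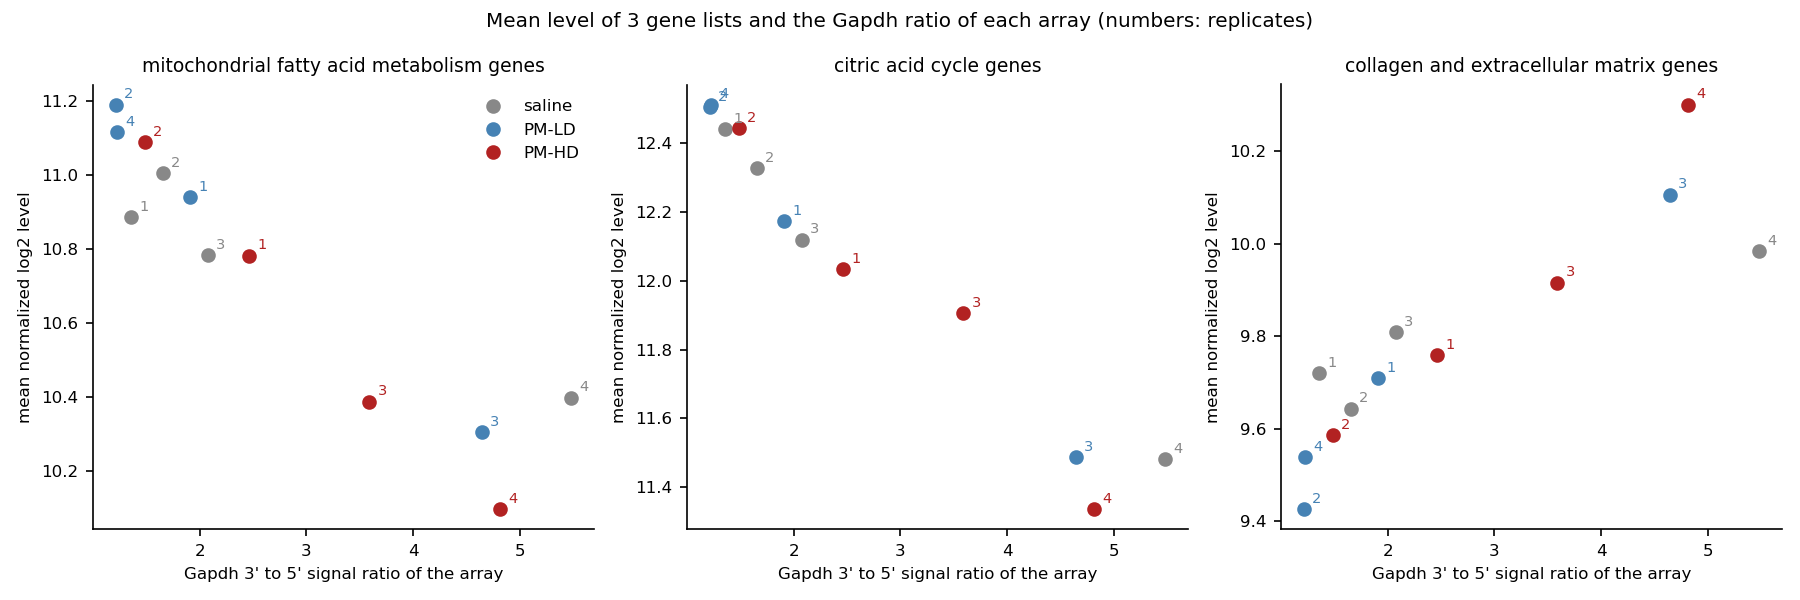
Mean normalized log2 level (vertical axes) of the genes of mitochondrial fatty acid metabolism, of the citric acid cycle, and of the extracellular matrix in each array of saline, PM-LD, and PM-HD, against the 3′ over 5′ signal ratio of the Gapdh controls (horizontal axes; numbers are replicates). In each of the 3 groups the array with the highest ratio has the lowest level of both lists of fuel genes and the highest level of the matrix genes.

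Genes of the extracellular matrix were on balance higher in PM-HD. Of 40, 4 passed as higher and 1 as lower, and 31 lay above 0 (median 0.20), where 2.40% of all 10410 genes passed as higher and 1.69% as lower, and 5431 lay above 0. Timp3, an inhibitor of matrix proteases, had 5111, 4062, 6214, and 7928 in PM-HD and 4086, 3262, 4269, and 2844 in PM-LD, with an overlap of single rats (0.71, standard error 0.31). The other 3 probe sets of Timp3 gave −0.37, −0.04, and 0.46 and did not pass. Mmp14, a protease of the cell surface, had 641, 406, 592, and 1320.5 in PM-HD and 564, 347, 482, and 263 in PM-LD (0.71, standard error 0.32). Its value was 0.39 without PM-HD replicate 4. The proteases Mmp8 (0.93, standard error 0.36) and Mmp9 (0.72, standard error 0.33) passed at dim signals, with 136 ± 26.0 and 27.1 ± 20.1 in PM-HD and 67.8 ± 33.2 and 7.75 ± 3.95 in PM-LD, and Mmp8 did not pass without PM-LD replicate 1 (0.56). The PM-LD signals of Mmp9, 4.5 to 13.5, all lay under the added 16, and its other probe set gave −0.12 and did not pass. The Mmp9 call was lost in 11 of 21 alternatives run, among them median centering and the mean of its probe sets. Loxl1, which crosslinks elastin, was lower in PM-HD (−1.17, standard error 0.55). The fibrillar collagens Col1a1 (0.16), Col1a2 (0.18), and Col3a1 (0.02) and the basement membrane collagens Col4a1 (0.30) and Col4a2 (0.47) did not pass. With the Gapdh ratio as a covariate, 21 of the 40 lay above 0 (median 0.05). The median of the 40 was 0.08 without PM-HD replicate 4 and 0.34 without PM-LD replicate 3. Mmp14 did not pass without PM-HD replicate 1 (0.73) or PM-LD replicates 2 (0.67) or 4 (0.54) either, Timp3 not without PM-HD replicates 3 (0.65) or 4 (0.52) or PM-LD replicates 2 (0.64) or 4 (0.58), and Mmp9 not without any of 5 arrays (0.47 to 0.70).

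Endothelial and fibroblast markers were mostly above 0 without passing, whereas the medians of 7 smooth muscle markers (−0.05, 3 above 0) and 8 macrophage and monocyte markers (−0.00, 4 above 0) lay near 0. Of all 10410 genes, 5431 lay above 0, and 2.40% passed as higher and 1.69% as lower. Of 8 endothelial markers, 0 passed and 7 lay above 0 (median 0.47), with Kdr, the main receptor of VEGF, at 5500 in PM-HD and 4199 in PM-LD (0.49, standard error 0.37). Their summed signal was 13077 to 26468 in PM-HD, 9408 to 23924 in PM-LD. With the Gapdh ratio as a covariate the endothelial median was 0.11. Of 8 fibroblast markers, 0 passed and 8 lay above 0 (median 0.22), with sums of 17352 to 30221 in PM-HD and 16741 to 29988 in PM-LD, and with the covariate 4 of the 8 lay above 0 (median 0.05). Ptprb, the receptor phosphatase of endothelial cells, was the 1 of 43 phosphatase genes that passed, with 3850.2, 2459, 4267, and 6519.6 in PM-HD and 1628, 1843, 3831, and 1689 in PM-LD (0.98, standard error 0.42). It was high in PM-LD replicate 3, the array of that dose with the high Gapdh ratio, and did not pass without any of 5 arrays (0.70 without PM-HD replicate 4, 0.95 without PM-HD replicate 3, 0.85 without PM-LD replicate 1, 0.88 without PM-LD replicate 2, and 0.85 without PM-LD replicate 4).

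**Figure D5:**
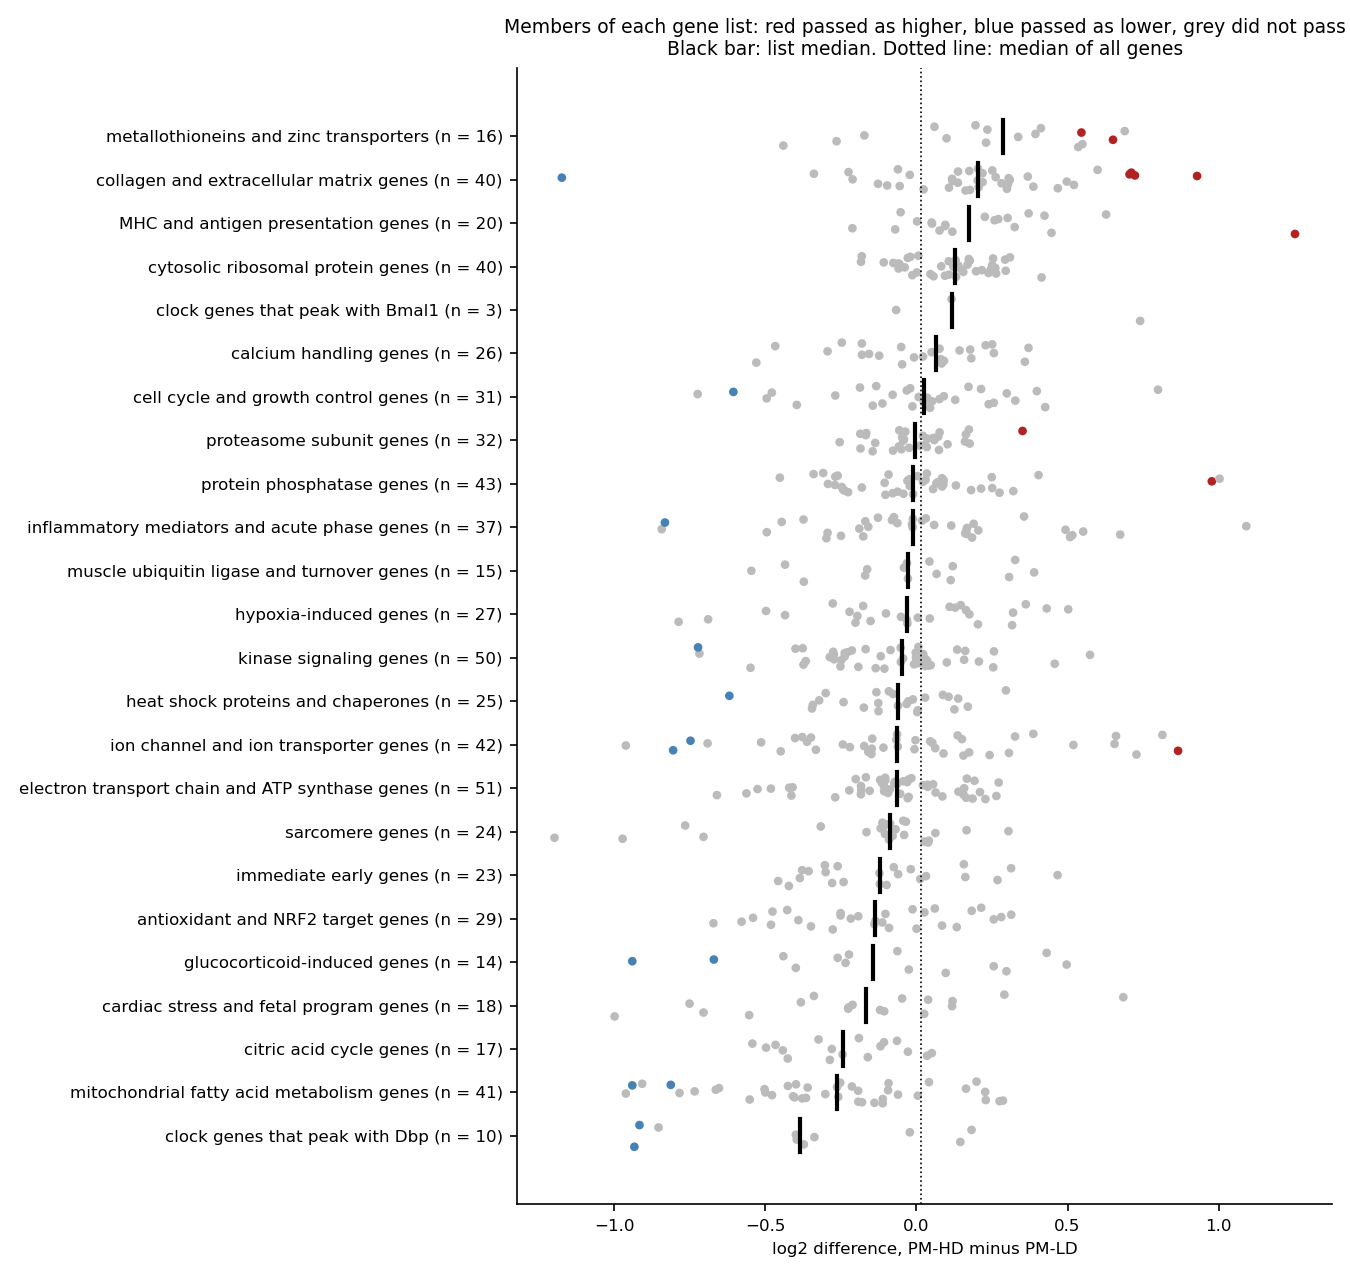
Log2 difference of PM-HD minus PM-LD (horizontal axis) of every measured member (points) of 24 gene lists (vertical axis, n in brackets), with the list median (black bar) and the median of all genes (dotted line, 0.02). Members that passed the thresholds are red where higher and blue where lower, and the list medians run from −0.38 (clock genes that peak with Dbp) to 0.29 (metallothioneins and zinc transporters).

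Among immune genes, 1 of 20 of antigen presentation passed as higher, RT1-CE5, and 17 of the 20 lay above 0 (median 0.17). Of all 10410 genes, 2.40% passed as higher and 1.69% as lower, and 5431 lay above 0. The subunits of the immunoproteasome, Psmb8 (0.42, standard error 0.31), Psmb9 (0.63, 0.31), and Psmb10 (0.37, 0.25), did not pass, nor did B2m, the light chain of class I molecules (0.26, 0.28). With the Gapdh ratio as a covariate, 11 of 20 lay above 0 (median 0.03). Of 37 inflammatory and acute phase genes, 0 passed as higher and 1 as lower (median −0.01). Serpina3n, a protease inhibitor of the acute phase, had 45.7, 9.3, 54.2, and 32.8 in PM-HD, 38.4, 67.9, 75.1, and 105 in PM-LD, and 60.8, 94.8, 85.9, and 134 in saline. Its means fell in the order saline, PM-LD, PM-HD, with the doses overlapping (−0.83, standard error 0.34, between the doses), and it did not pass without PM-HD replicate 2 (−0.56) or PM-LD replicates 2 (−0.76) or 4 (−0.64). Il1b (0.18), Il6 (0.51), Ccl2 (0.67), and Cxcl2 (0.55) did not pass. Of the markers of macrophages and monocytes, 0 of 8 passed (median −0.00; sums of 2609 to 3868 in PM-HD and 2303 to 4811 in PM-LD), and of neutrophils 0 of 4 and of T and NK cells 0 of 12. Tpsb2, a tryptase of mast cells, was lower in PM-HD (17.6, 65.4, 23.6, and 50.9 against 129, 141, 32.5, and 392 in PM-LD; −1.52, standard error 0.56). It was highest in PM-LD replicate 4 and did not pass without that array (−1.0 in the fit of the remaining arrays). The other 6 mast cell markers did not pass, Cpa3 among them (−0.01).

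Of 42 ion channels and transporters, 1 passed as higher and 2 as lower (median −0.06), counts near the shares over all genes of 2.40% higher and 1.69% lower. Kcnj2, the inward rectifier that sets the resting potential, was dim, with 143, 90.4, 109, and 128 in PM-HD and 61.6, 23.8, 68, and 82.6 in PM-LD, without overlap (0.87, standard error 0.35). It did not pass without PM-HD replicate 1 (0.77) or PM-LD replicate 2 (0.65). Nor did it pass without the arrays of Gapdh ratio above 3 or without those of atrial mean above 11. Kcnj3, a channel subunit gated by acetylcholine and typical of the atrium, had 148, 410.0, 241, and 237 in PM-HD and 269.8, 575, 329.5, and 654 in PM-LD (−0.80, standard error 0.35). The other probe sets of Kcnj3 gave 0.05 and −0.09 and did not pass. Hcn2, a pacemaker channel, had 482, 1224, 745, and 518 in PM-HD and 887, 1358, 1004, and 1530.1 in PM-LD (−0.75, standard error 0.31). PM-LD replicates 2 and 4 were the high rats for both genes, and both lost their calls without PM-HD replicates 1 (−0.60 and −0.59) or 4 (−0.77 and −0.59) or PM-LD replicates 2 (−0.64 and −0.68) or 4 (−0.59 and −0.63), and Kcnj3 also without PM-HD replicate 3 (−0.78). The 4 atrial transcripts did not pass (median −0.98), with sums of 3224 to 8160 in PM-HD and 5094 to 41458 in PM-LD. The difference in their mean level turned to 0.18 without PM-LD replicate 2. Of the rats high for Kcnj3 and Hcn2, PM-LD replicate 2 had the highest atrial mean of its dose (13.1) and PM-LD replicate 4 the lowest (8.21). Atrial tissue as a cause was not tested. With the atrial mean as a covariate both genes passed, at −0.69 for Kcnj3 and −0.70 for Hcn2. Neither passed without the arrays of high atrial level or without those of Gapdh ratio above 3. Kcnj3 also lost its call with the Gapdh ratio as a covariate, with the arrays of the doses fitted alone, and with the mean of its probe sets.

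The lists of cell defense and signaling held few calls, where 2.40% of all genes passed as higher and 1.69% as lower. Of 29 antioxidant genes 0 passed (median −0.14), and of 25 heat shock genes and chaperones Dnajb4 alone passed, as lower (−0.62, standard error 0.28), a call lost without any of 6 arrays (−0.45 to −0.64). Of 23 immediate early genes 0 passed (median −0.12), as did 0 of 27 hypoxia-induced genes (−0.03). Of 14 glucocorticoid-induced genes, Glul and Pdk4 passed as lower, the call of Pdk4 being lost without any of 5 arrays and with the Gapdh or the atrial covariate, and Fkbp5 (0.10, standard error 0.25), a sensitive target of the hormone receptor, did not pass. Of 31 cell cycle genes, Mdm2 passed as lower. Insr, the insulin receptor, was the 1 of 50 kinase signaling genes that passed (−0.72, standard error 0.33), at dim signals, and not without PM-HD replicates 3 (−0.57) or 4 (−0.43) or PM-LD replicates 2 (−0.71) or 4 (−0.62). Of 32 proteasome subunits, Psmd13 passed as higher, with 696, 692, 667, and 762 in PM-HD and 567, 488, 619, and 459.6 in PM-LD (0.35, standard error 0.15), but not without PM-HD replicate 4 (0.33) or PM-LD replicates 2 (0.33) or 4 (0.30).

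The heart's contractile and stress programs did not pass in any member, where 2.40% of all genes passed as higher and 1.69% as lower. This held for 24 sarcomere genes (median −0.09), 18 genes of the stress and fetal program (−0.17), 26 of calcium handling (0.06), 40 cytosolic ribosomal proteins (0.13), and 15 of muscle ubiquitin ligases and turnover (−0.03). The natriuretic peptide gene Nppb had means of 5346 in PM-HD, 8838 in PM-LD, and 4682 in saline (−0.55, standard error 0.46 between the doses), and Myh7, the slow myosin, 32461, 29892, and 29120 (0.03, standard error 0.15). Among other tissue markers, Tnnc2 was higher (0.89) and Pvalb lower (0.499-fold) of 12 skeletal muscle genes, both at dim signals under 100 in every rat of both doses, and Lmod1 was higher (0.60) of 7 smooth muscle genes. The Tnnc2 call was lost without any of 4 arrays (0.57 to 0.80), that of Pvalb without any of 3 (−0.72 to −0.93), and that of Lmod1 without any of 7 (0.43 to 0.64). Erythroid, adipocyte, brown adipocyte, B cell, epicardial, Schwann cell and neuron, and lung epithelial markers, and the 1 marker of thymus and lymph node, held 0 calls.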

How the data were processed

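Signals of rat heart arrays, 1 array per rat and 4 per group, were deposited on a linear intensity scale, made by the authors with Microarray Suite 5.0 (MAS5 in the submitters' processing notes) and scaled to 1 trimmed mean. The study's own tests, per its methods, were run on robust multiarray averages, not analysed here. Probe sets were named from the platform annotation: 12783 of 15923 carried 1 symbol, 312 several, and the rest none or were among 57 controls. After 16 was added, signals were log2 transformed and quantile normalized across all 24 arrays, and limma 3.58.1 (R 4.3.3) fitted 1 mean per group. Log2 differences carry the moderated standard error, and differences of dim genes are understated by the added 16. In the arrays of these doses, 7.19% to 10.6% of signals lay under 16. Per-rat signals are as deposited, and non-overlap and exact permutation tests (two-sided, 70 arrangements) used normalized values. The number of arrays limits the precision. Adjusted p is Benjamini-Hochberg over 15866 probe sets. For each gene the probe set of highest mean level was taken. Named genes were the 12 largest differences in each direction among bright, passing genes with 1 symbol and no overlap, up to 4 passing members of each list, all clock and zinc genes, and 3 probe sets (of Sptbn1, Mdm2, and Slc4a4) chosen for their p. Other examples within lists were also named after their values were seen. The members and lists were chosen with earlier results of these data known. The scripts were tested on simulated data. Promoters are of RefSeq, build GRCr8. Replicates are separate rats.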

Additional observations from a re-analysis of the deposited data

Results flagged for a closer look

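Among 152 groups of 4 values, which were those of the named probe sets, the Gapdh ratio, and the atrial level in each dose, 6 held 1 rat far from the other 3, where chance alone gives about 1 in 20. In PM-HD these were Acacb in replicate 1 (139.1, others 215.5 to 250.4), Taok1 in replicate 1 (54.9, others 226.1 to 263), and Golph3 in replicate 4 (268.8, others 422.4 to 471.7). In PM-LD they were Mt1 in replicate 3 (131.5, others 8.4 to 11.4), Ptprb in replicate 3 (3830.7, others 1627.8 to 1843), and Mmp9 in replicate 4 (13.5, others 4.5 to 6.6).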

How the results depend on the processing

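The alternatives to the normalization, variance model, and thresholds kept the numbers of higher and of lower probe sets within 1.5 times, except that 189 higher and 122 lower passed when only probe sets above the median level were fitted, where fewer were tested. The covariates and the removal of arrays by Gapdh ratio or atrial level kept both counts within 1.5 times, but without the arrays of Gapdh ratio above 3 the 1069 probe sets that passed shared 359 with the 740. Leaving out 1 array gave 299 to 893 higher and 264 to 684 lower probe sets, and 0 to 1 at adjusted p under 0.05. The difference in atrial level ran from −1.45 to 0.18 and was reversed (0.18) without PM-LD replicate 2. Among the 74 named probe sets, signs turned only in genes that had not passed. These were Slc30a3 (−0.042) with the Gapdh ratio as covariate, Mt3 (−0.026), Per1 (0.55), Per2 (0.028), Slc39a13 (−0.0054), Slc39a14 (−0.022), and Tef (0.052) without the arrays of Gapdh ratio above 3, Slc39a13 (−0.039) without those of high atrial level, and Clock (0.034) with the mean of all probe sets. With 1 array left out, Clock ran from −0.16 to 0.022, Per1 from −1.06 to 0.40, Per2 from −0.34 to 0.27, Per3 from −0.079 to 0.42, and Slc39a13 from −0.040 to 0.13. The cause was not tested. The median standard error of 0.268 on the log2 scale and the share of signals near background limit what 4 arrays a group can show.

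Replicate numbers were not taken to pair the samples, since same-numbered arrays of the doses correlated at 0.042, 0.308, 0.113, and −0.241 in their deviations. With a replicate block, 368 probe sets were higher, 441 lower, and 0 at adjusted p under 0.05, and 461 of the 740 probe sets passed again. Not every array correlated best with its own number.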
